A study of Mus musculus with 9 samples.

Results

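The SPARC family and the thrombospondins are matricellular proteins, which cells secrete into the extracellular matrix and which modulate how cells attach and signal rather than bear load. This report describes the mRNA of 9 mouse genes listed by name for this purpose: Sparc, Smoc1, Smoc2, Spock1 and Spock2 of the SPARC family, and Thbs1, Thbs2, Thbs3 and Thsd4 of the genes related to thrombospondin. Of these, 8 have a row in the table of 19044 genes, and Spock1 was not analysed here. The genes were chosen by their membership of these families and on the counts in the 3 lines, since Smoc1 and Thsd4 were selected on their high levels in cells with active FAK. Their levels in FAK-WT cells against the other lines are therefore given as a description, with no test. FAK-kd against FAK-/- cells, a comparison that this selection did not name, was tested. The genes were listed with earlier results of these data known, so the p-values of that comparison may not be independent of the choice. The comparisons share libraries with each other.

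RNA was sequenced from 3 squamous cell carcinoma (SCC) cell lines, with 3 replicates each. The tumors arose by chemical carcinogenesis in the skin of K14CreER FAK flox/flox FVB mice, and the Ptk2 gene, which encodes focal adhesion kinase (FAK), was then deleted in the excised cells by 4-hydroxytamoxifen. FAK-/- cells stayed without FAK. FAK-WT and FAK-kd cells descend from 1 FAK-/- clone, carry the deletion too, and express wild-type or kinase-deficient FAK from a retrovirus under hygromycin selection. Each FAK form is thus represented by 1 cell line, so the form of FAK and other differences between lines cannot be told apart. The sources used here do not say whether the FAK-/- line received an empty vector or hygromycin. The study calls the replicates biological, with no word in its labels on separate cultures, and the p-values measure the spread between these samples of 1 line each.

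Values are CPM, read counts scaled to the library total, with TMM factors that correct each total for its composition. FAK-WT replicate 1 held 779755 counts, 2.31% of the median of the other 8 libraries, which held between 25304994 and 37264636. The smallest level told from none, 3 counts, is 3.78 CPM in that library and between 0.0799 and 0.118 CPM in the others, so results are also given without it. Ptk2 stood at 213 to 216 CPM in FAK-WT cells, at 155 to 176 CPM with FAK-kd, and at 19.6 to 23.5 CPM in cells without FAK. Of 8 keratinocyte markers, 5 or 6 in each line had no row or at most 3 counts in every library, and their summed level lay between 0.237 and 1.77 CPM over all libraries. The summed level of 8 fibroblast markers, most of it Vim and Col3a1, lay between 8374 and 10130 CPM, while endothelial and leukocyte markers summed to at most 2.05 and 3.33 CPM. This sum hides fibroblast markers that differed, in both directions. Pdgfra had means of 11.06, 31.03 and 24.69 CPM and Pdgfrb 5.50, 25.8 and 33.1 CPM in FAK-WT, FAK-/- and FAK-kd cells. Both were past the threshold below (set out with the counts), downward, in each FAK-WT comparison (edgeR adjusted p between 7.35e-08 and 0.000157). In FAK-WT over FAK-/- cells 1 other fibroblast marker, Dcn, was past it upward. It is scarce, with 0 to 19 counts in FAK-WT and 0 to 5 in FAK-/- libraries. Of the 7 fibroblast markers with a row, 3 were past the threshold in this comparison, against 5.38% of all genes. In FAK-WT over FAK-kd cells 2 of the 7 were, against 5.26%. By their means, Col1a1 was also lowest in FAK-WT cells, and Col1a2, Col3a1, Dcn and Vim were lowest in FAK-/- cells. Vim at 6859 to 7659 CPM in FAK-/- libraries spans its FAK-WT values of 7365 to 7450 CPM. Col3a1 overlaps between FAK-/- and FAK-kd libraries, at 1287 to 1569 and 1359 to 1913 CPM, and Dcn between FAK-/- and FAK-WT libraries. The defining keratinocyte markers of the labelled carcinoma were thus at or near 0 in these cells.

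SPARC binds collagens and is the founding member of a family built on a follistatin-like and a calcium-binding domain. SMOC1 and SMOC2 are its relatives in basement membranes, SMOC1 also being known as an antagonist of bone morphogenetic proteins, and SPOCK proteins are proteoglycans. Thrombospondins 1 and 2, encoded by Thbs1 and Thbs2, carry properdin-like thrombospondin repeats, bind the receptors CD36 and CD47, restrain blood vessel growth and, for thrombospondin 1, activate latent TGF-beta. Thrombospondin 3 lacks these repeats, and the product of Thsd4, also called ADAMTSL6, carries them and promotes assembly of fibrillin microfibrils.

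Smoc1 with Smoc2, and Thbs1 with Thbs2, are paralogs, so their most similar coding stretches are shown first, since the counts of 1 gene could otherwise be taken from the other. In GRCm38, the stretch of Smoc1 is chr12:81167579-81167668 on the plus strand, in exon 8 of 13, and that of Smoc2 is chr17:14368974-14369063 on the plus strand, in exon 8 of 13. In these 90 bases, 76 are identical (84.4%), and capitals mark the 14 that differ.
Smoc1: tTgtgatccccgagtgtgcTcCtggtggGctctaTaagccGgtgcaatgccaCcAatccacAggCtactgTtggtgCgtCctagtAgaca
Smoc2: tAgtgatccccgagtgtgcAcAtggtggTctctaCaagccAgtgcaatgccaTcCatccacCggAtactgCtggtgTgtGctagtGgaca
The stretch of Thbs1 is chr2:118123327-118123416 on the plus strand and that of Thbs2 is chr17:14670717-14670806 on the minus strand, each in exon 19 of 22. Here 80 of 90 bases are identical (88.9%), and capitals mark the 10 that differ.
Thbs1: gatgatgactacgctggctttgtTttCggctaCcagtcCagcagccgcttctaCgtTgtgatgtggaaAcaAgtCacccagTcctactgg
Thbs2: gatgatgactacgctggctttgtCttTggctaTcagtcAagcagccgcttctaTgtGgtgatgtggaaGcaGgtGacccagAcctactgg
The longest run shared by the coding sequences was 33 bases between Smoc1 and Smoc2 and 26 bases between Thbs1 and Thbs2. Of the 31-base words that kallisto uses by default to place reads, 3 of 3524 (0.0851%) in Smoc1 transcripts also occur in Smoc2. No word of Thbs2 occurs in another gene. Words that occur in other genes made up 0.13% in Smoc2, 2.68% in Thbs1, 1.65% in Sparc, 1.03% in Spock2 and 0.847% in Thsd4.

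Sparc (ENSMUSG00000018593, chr11:55394500-55423183, minus strand) was the most abundant of the genes and hardly differed between the lines. Its CPM were 1173, 1133 and 1189 in FAK-WT replicates 1 to 3, 1275, 1254 and 1145 in FAK-/-, and 1176, 1139 and 1129 in FAK-kd. The ranges of the 3 lines overlap. In FAK-kd over FAK-/- cells the log2 fold change was -0.09 (SE 0.06, 95% interval -0.22 to 0.04, edgeR adjusted p = 0.438), and in FAK-WT cells it was -0.07 over FAK-/- and 0.02 over FAK-kd (SE 0.06 in each). The interval for FAK-kd over FAK-/- lies within the fold-change minimum of 1 in size on the log2 scale. Fewer cells that express a gene and less RNA per cell cannot be told apart in such bulk samples.

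Smoc1 (ENSMUSG00000021136, chr12:81026808-81186414, plus strand) had a separate level in each of the 3 lines. It was highest in FAK-WT cells, at 18.88, 16.39 and 13.9 CPM, the first from 15 counts in the shallow library and the others from 616 and 482. FAK-/- cells had 1.858, 1.341 and 1.441 CPM, from 62, 34 and 45 counts. FAK-kd cells had 0.1499, 0.1797 and 0.2635 CPM, from only 5, 6 and 9 counts. No library of 1 line overlaps with another line. FAK-kd cells, which express a FAK protein, thus had less Smoc1 than cells with none: the level fell 7.70-fold, a log2 fold change of -2.94 (SE 0.27, 95% interval -3.53 to -2.36, edgeR adjusted p = 6.82e-06). Over the 15 alternatives to this fit the log2 fold change lay between -3.21 and -2.79 and the adjusted p between 5.78e-11 and 0.000537. In FAK-WT cells Smoc1 was 10.1-fold above FAK-/- (log2 3.33, SE 0.21) and 77.5-fold above FAK-kd cells (log2 6.28, SE 0.26), and without FAK-WT replicate 1 these log2 fold changes were 3.28 and 6.23. The few counts in FAK-kd cells stand beside 4137 to 6239 counts of Smoc2 in the same libraries, and the part of words shared with Smoc2 in them was not tested. Cdh5, 1 of 4 endothelial markers, had the same order, and its part was not tested. It had 1.24 to 1.97 CPM (1 to 74 counts) in FAK-WT libraries. FAK-/- libraries had 3 to 6 counts of it and FAK-kd libraries 0 to 2. Pecam1 instead had its lowest mean in FAK-WT cells, with means of 0.0769, 0.220 and 0.188 CPM in FAK-WT, FAK-/- and FAK-kd cells. Its libraries overlap between all lines, at 0 to 8, 4 to 8 and 4 to 9 counts, so it does not order them. Kdr and Tek were too scarce to order the lines, with counts of 0 to 3 per library.

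Smoc2 (ENSMUSG00000023886, chr17:14279506-14404790, plus strand) had the opposite order in FAK-WT cells. FAK-WT libraries had 31.47, 26.05 and 26.5 CPM, FAK-/- libraries 206.7, 201.8 and 213.5, and FAK-kd libraries 187.1, 123.9 and 129.3. All FAK-WT libraries lie below all others, and FAK-kd replicate 1 stands near the FAK-/- libraries, apart from the other FAK-kd libraries. Smoc2 in FAK-WT cells was 7.78-fold below FAK-/- (log2 -2.96, SE 0.14) and 5.50-fold below FAK-kd cells (log2 -2.46, SE 0.14). FAK-kd over FAK-/- gave a log2 fold change of -0.50 (SE 0.12, 95% interval -0.75 to -0.25, edgeR adjusted p = 0.0163), below the fold-change minimum. This adjusted p rose above 0.05 in 3 of 15 alternatives: 0.096 without FAK-kd replicate 2, 0.131 without FAK-kd replicate 3 and 0.0552 in a fit of only the groups compared, over a range of 7.65e-05 to 0.131. Without FAK-kd replicate 1 the log2 fold change was -0.72. The fibroblast markers Pdgfra, Pdgfrb and Col1a1 were also lowest in FAK-WT cells by their means. The means of Col1a2, Col3a1, Dcn and Vim were lowest in FAK-/- cells, where Col3a1, Dcn and Vim overlap with libraries of another line. The part of these fibroblast markers in the levels of Smoc2, Fstl1 and Tgfbi was not tested.

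**Figure D1:**
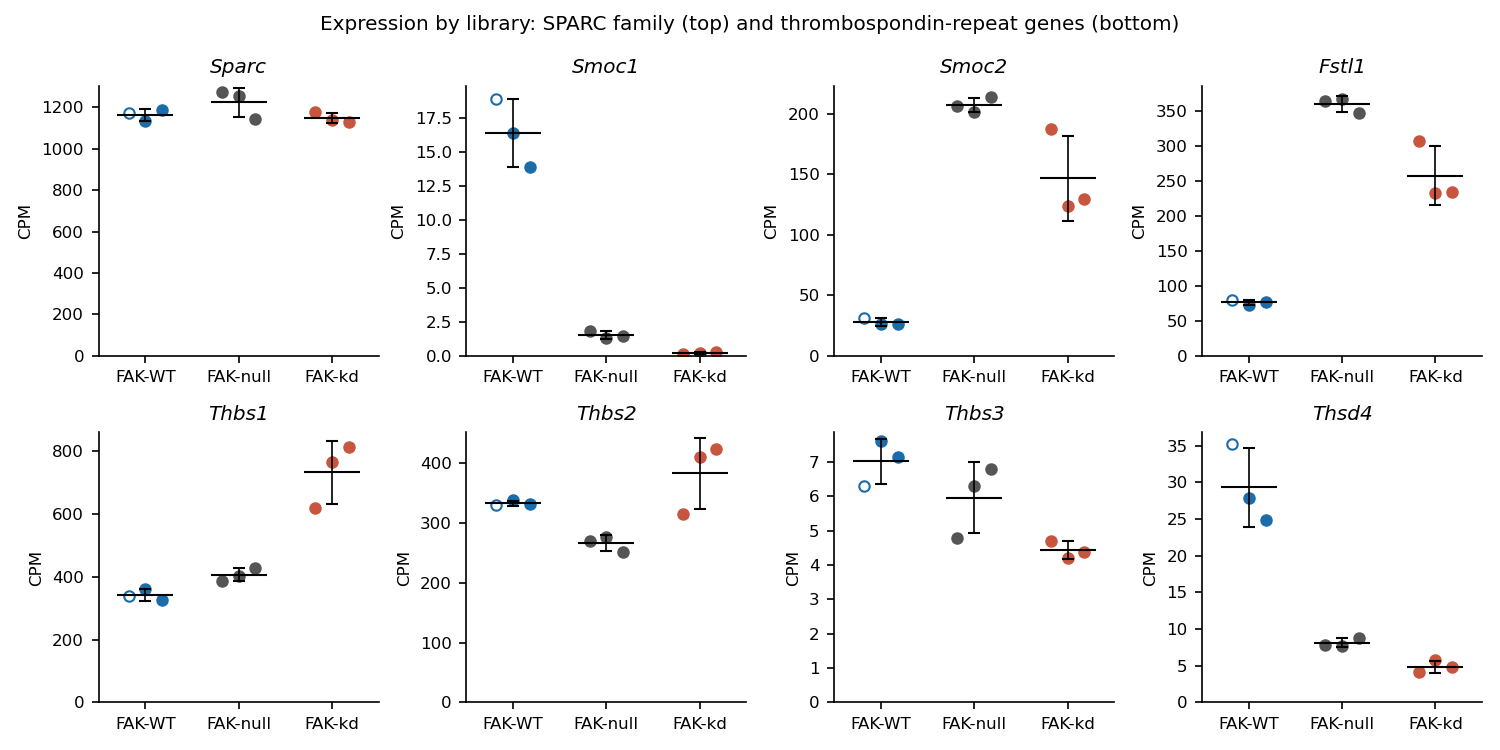
Each panel plots TMM-scaled CPM (linear axis from 0) of 1 gene by cell line, with 1 point per library, the open point for the shallow FAK-WT replicate 1, a line at the mean and bars of ± 1 SD over 3 libraries. Smoc1 and Thsd4 stand highest in FAK-WT, Smoc2 and Fstl1 lowest in FAK-WT, and Thbs1 highest in FAK-kd cells at 617 to 811 CPM.

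The share of Smoc1 in the summed counts of Smoc1 and Smoc2 compares the paralogs within a library and so does not depend on library size. It was 37.5% (Wilson 95% interval 24.2 to 53.0, 40 counts), 38.6% and 34.4% in FAK-WT libraries, 0.891%, 0.660% and 0.670% in FAK-/-, and 0.0801%, 0.145% and 0.203% in FAK-kd. The mean share was 0.143 ± 0.0617% in FAK-kd and 0.740 ± 0.130% in FAK-/- cells (SD, n = 3), with no overlap (two-sided exact permutation p = 0.1, the smallest that 3 libraries against 3 allow). FAK-kd cells thus had less Smoc1 relative to Smoc2 than FAK-/- cells in every library. Intervals on counts cover counting error only.

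The other SPARC relatives measured were Spock2, Fstl1, Sparcl1 and Spock3. Spock2 (ENSMUSG00000058297, chr10:60106219-60135198, plus strand), a proteoglycan gene, had 0, 1 and 4 counts in FAK-WT, 0, 2 and 3 in FAK-/-, and 1, 3 and 6 in FAK-kd libraries, at most 0.176 CPM. No difference was detectable at this depth (FAK-kd over FAK-/-, log2 0.76, SE 0.98, edgeR adjusted p = 0.697), and Spock3 had at most 4 counts in any library. Fstl1 (ENSMUSG00000022816), a secreted follistatin-like relative of SPARC that is not among the 9 genes and was tested in every comparison, had nearly the profile of Smoc2. Its CPM were 79.31, 72.44 and 77.63 in FAK-WT, 364.7, 367.4 and 347.3 in FAK-/-, and 306.5, 232.3 and 234.2 in FAK-kd. Fstl1 in FAK-WT cells was 4.76-fold below FAK-/- (log2 -2.25, SE 0.10, edgeR adjusted p = 1.02e-09) and 3.41-fold below FAK-kd cells (log2 -1.77, SE 0.10, edgeR adjusted p = 1.15e-08). FAK-kd over FAK-/- gave -0.48 (SE 0.09, edgeR adjusted p = 0.00429), and FAK-kd replicate 1 again stood nearest the FAK-/- libraries. Sparcl1 (ENSMUSG00000029309), the closest relative of Sparc, was scarce, with 0, 7 and 6 counts in FAK-WT, 32, 20 and 17 in FAK-/-, and 22, 19 and 23 in FAK-kd libraries. Its level in FAK-WT cells was below that of FAK-/- (log2 -2.09, SE 0.45, edgeR adjusted p = 0.00419) and of FAK-kd cells (log2 -1.82, SE 0.45, edgeR adjusted p = 0.0101). The call against FAK-/- was lost without FAK-WT replicate 3 (log2 -2.06, edgeR adjusted p = 0.0513). The call against FAK-kd was lost without FAK-WT replicate 2 or 3 (log2 -1.89 and -1.79, edgeR adjusted p = 0.0803 and 0.093) and in DESeq2 (log2 -1.77, adjusted p = 0.0871).

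Thbs1 (ENSMUSG00000040152, chr2:118111876-118127133, plus strand) was highest in FAK-kd cells. Its CPM were 338.6, 361.9 and 325.2 in FAK-WT, 387.1, 402.7 and 427.1 in FAK-/-, and 617.2, 765.5 and 811 in FAK-kd. The 3 lines do not overlap, and FAK-kd replicate 1 is the lowest of its line. The level in FAK-kd cells was 1.80-fold that in FAK-/- (log2 0.85, SE 0.09, 95% interval 0.66 to 1.04, edgeR adjusted p = 2.24e-05), which misses the fold-change minimum of 1. Over 15 alternatives the log2 value lay between 0.76 and 0.95, and the adjusted p reached at most 0.000535. FAK-WT cells were at -0.24 (SE 0.09) against FAK-/- and at -1.10 (SE 0.09), a 2.14-fold lower level, against FAK-kd cells on the log2 scale.

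Thbs2 (ENSMUSG00000023885, chr17:14665500-14694235, minus strand) was lowest in FAK-/- cells. It had 329.8, 337.8 and 331.1 CPM in FAK-WT, 269.4, 277.3 and 250.9 in FAK-/-, and 315, 410.2 and 422.8 in FAK-kd libraries. The FAK-kd libraries span the FAK-WT values, while all FAK-/- libraries lie below both. The level in FAK-kd was 1.44-fold that in FAK-/- cells (log2 0.53, SE 0.09, 95% interval 0.33 to 0.72, edgeR adjusted p = 0.00224, at most 0.0299 over 15 alternatives), below the fold-change minimum. FAK-WT over FAK-/- gave 0.33 and FAK-WT over FAK-kd -0.20 (SE 0.10 in each) on the log2 scale. The latter value was -0.31 without FAK-kd replicate 1 and -0.11 without FAK-kd replicate 3.

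Both thrombospondin genes were thus higher in FAK-kd than in FAK-/- cells, with fold changes whose 95% intervals overlap. The share of Thbs1 in the summed counts of both genes was 50.7% (Wilson 95% interval 46.4 to 54.9), 51.7% and 49.6% in FAK-WT libraries, 59.0%, 59.2% and 63.0% in FAK-/-, and 66.2%, 65.1% and 65.7% in FAK-kd. The mean was 65.7 ± 0.551% in FAK-kd and 60.4 ± 2.26% in FAK-/- cells (SD, n = 3, two-sided exact permutation p = 0.1, again the smallest possible). FAK-kd replicate 1, which stands apart in the levels of both genes, has a share like that of its line.

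**Figure D2:**
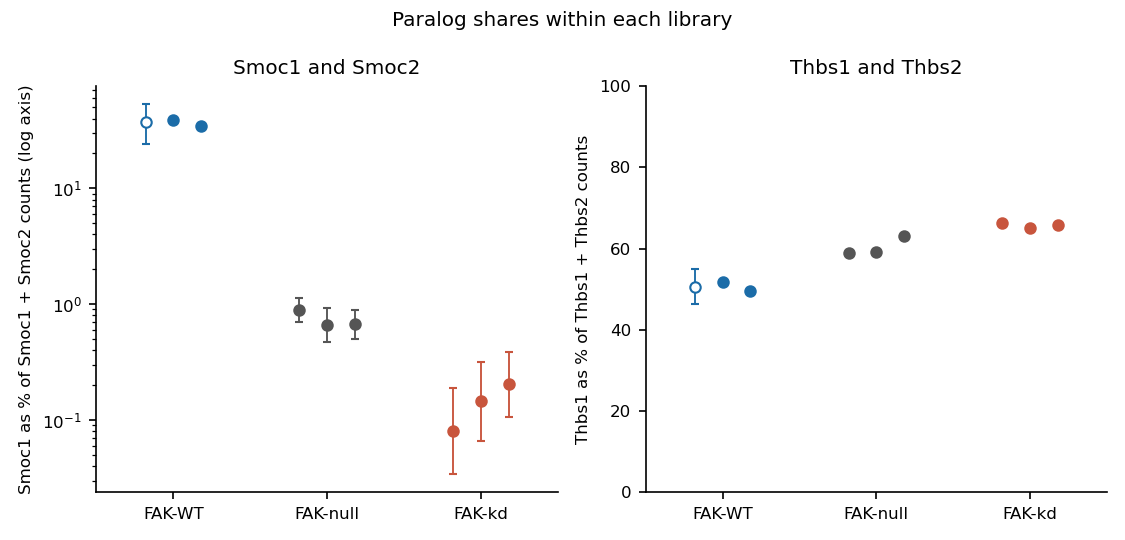
The left panel plots Smoc1 as a percent of Smoc1 and Smoc2 counts on a log axis, and the right panel Thbs1 as a percent of Thbs1 and Thbs2 counts on a linear axis, with 1 point per library, an open point for FAK-WT replicate 1 and Wilson 95% intervals, hidden by the points where narrow. The Smoc1 share steps from 34.4 to 38.6% in FAK-WT to below 1% in the other lines, and the Thbs1 share from 49.6 to 51.7% in FAK-WT to 65.1 to 66.2% in FAK-kd cells.

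Thbs2 and Smoc2 are neighbors on chromosome 17. Their 3' ends face each other across 261 kb that hold 2 annotated genes, a pseudogene and a long noncoding RNA, neither with a row in the table. Their patterns were not alike: FAK-WT cells had the lowest Smoc2 level, at 28.0 ± 3.01 CPM, and an intermediate Thbs2 level, at 333 ± 4.29 CPM (SD, n = 3).

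Thbs3 (ENSMUSG00000028047, chr3:89215180-89226837, plus strand), the thrombospondin without the repeats, was low. FAK-WT libraries had 6.294, 7.611 and 7.151 CPM, the first from 5 counts, FAK-/- libraries 4.794, 6.309 and 6.786, and FAK-kd libraries 4.707, 4.194 and 4.392. The FAK-kd libraries lie just below the FAK-/- libraries, at a log2 fold change of -0.43 (SE 0.16, 95% interval -0.77 to -0.08) that did not pass the test (edgeR adjusted p = 0.132). FAK-WT cells were at 0.29 over FAK-/- (0.17 without FAK-/- replicate 1) and 0.72 over FAK-kd (SE 0.17 in each). Thbs3 lies within the bounds of Mtx1 on the other strand, and 236 of its 5006 words of 31 bases (4.71%) are shared with Mtx1, which had means of 46.7, 44.4 and 42.6 CPM in FAK-WT, FAK-/- and FAK-kd cells. The library kit does not mark the strand, so reads of the shared part cannot be told apart and the values of Thbs3 are uncertain.

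Thsd4 (ENSMUSG00000032289, chr9:59966931-60522046, minus strand) was high in FAK-WT cells, as Smoc1 was, and lowest in FAK-kd cells. FAK-WT libraries had 35.25, 27.86 and 24.83 CPM, the first from 28 counts, with an exact Poisson lower bound of 23.4 CPM. FAK-/- libraries had 7.88, 7.728 and 8.803 CPM, and FAK-kd libraries 4.137, 5.752 and 4.772. No line overlaps another. FAK-kd cells had 1.67-fold less Thsd4 than FAK-/- cells (log2 -0.74, SE 0.14, 95% interval -1.03 to -0.44, edgeR adjusted p = 0.00344, at most 0.0262 over 15 alternatives), a difference under the fold-change minimum. FAK-WT cells were 3.36-fold above FAK-/- (log2 1.75, SE 0.14) and 5.60-fold above FAK-kd cells (log2 2.49, SE 0.14). Without FAK-WT replicate 1 these log2 values were 1.69 and 2.43.

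Thsd4 has 2 annotated starts in RefSeq, and the counts, which are per gene, do not show which was used. Their promoters, 300 bases that end just after each start on GRCm38.p6, are printed here as the regulatory sequence of a gene whose libraries did not overlap between any lines, beside that of Sparc, whose fold changes lay near 0. Smoc1, Smoc2 and Thbs1 had no entry.
Thsd4, chr9:60510986-60511285, minus strand: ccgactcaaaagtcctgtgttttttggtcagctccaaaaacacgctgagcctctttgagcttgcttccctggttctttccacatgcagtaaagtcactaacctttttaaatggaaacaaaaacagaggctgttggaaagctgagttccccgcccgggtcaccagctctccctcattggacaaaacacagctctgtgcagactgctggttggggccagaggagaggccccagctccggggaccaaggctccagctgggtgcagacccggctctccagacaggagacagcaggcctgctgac
Thsd4, chr9:60141171-60141470, minus strand: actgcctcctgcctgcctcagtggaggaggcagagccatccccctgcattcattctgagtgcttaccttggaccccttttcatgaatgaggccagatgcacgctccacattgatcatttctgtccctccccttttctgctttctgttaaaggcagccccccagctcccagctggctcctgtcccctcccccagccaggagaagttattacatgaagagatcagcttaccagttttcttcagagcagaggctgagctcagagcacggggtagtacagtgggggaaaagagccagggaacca
Sparc, chr11:55420031-55420330, minus strand: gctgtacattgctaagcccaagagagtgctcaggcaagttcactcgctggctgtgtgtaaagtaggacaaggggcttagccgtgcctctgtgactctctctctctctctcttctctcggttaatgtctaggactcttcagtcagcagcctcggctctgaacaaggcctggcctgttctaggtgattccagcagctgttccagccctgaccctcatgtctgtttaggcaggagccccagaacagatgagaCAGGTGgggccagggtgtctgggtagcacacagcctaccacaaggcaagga
Capitals mark the only match to 5 motifs searched on both strands, an E-box (CACCTG, here on the other strand) near the start of Sparc. Of 32851 promoters of this length, 20.2% hold that E-box, 14.7% the TEAD motif GGAATG, 7.81% the AP-1 motif TGANTCA, 3.89% the ETS motif CCGGAAGT and 1.79% the CRE motif TGACGTCA. None of these is in the windows of Thsd4. A motif's absence from such a window says only that these letters are not in it.

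Per kilobase of the longest coding transcript, which lets levels of different genes be compared, Sparc led in every line, at means of 507, 532 and 499 CPM per kb in FAK-WT, FAK-/- and FAK-kd cells. In FAK-WT cells Thbs1 and Thbs2 followed at 58.5 and 56.5 CPM per kb, with ranges that overlap, and then Smoc2 at 9.89, Smoc1 at 4.69, Thsd4 at 3.33 and Thbs3 at 2.20. The ranges of Smoc1 and Thsd4 there overlap too. In FAK-/- cells Smoc2 stood second at 73.2 CPM per kb, not apart from Thbs1 at 69.4, and Thbs2 was at 45.1. In FAK-kd cells Thbs1 was second at 125 CPM per kb, followed by Thbs2 at 64.9 and Smoc2 at 51.8, whose ranges overlap. Smoc1 was last but for Spock2 in FAK-/- and FAK-kd cells, at 0.442 and 0.0566 CPM per kb. The scale depends on the transcript: the median annotated Sparc transcript has 1366 bases and the longest 2300.

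**Figure D3:**
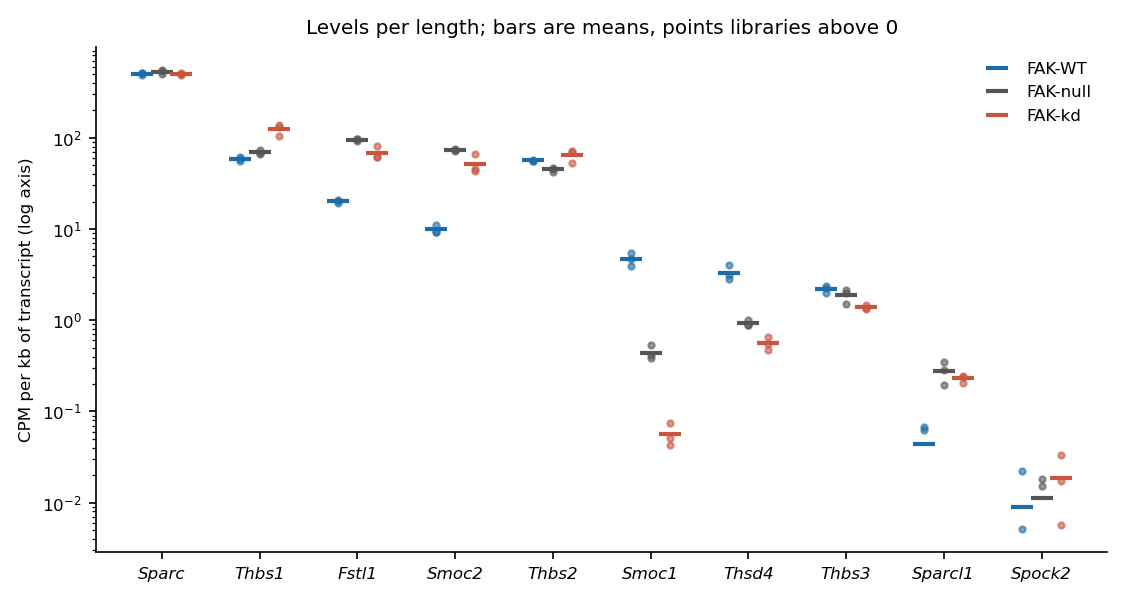
The plot gives CPM per kilobase of the longest coding transcript on a log axis for each gene and cell line, with bars at the means of 3 libraries and points for libraries above 0. Sparc stands at 499 to 532 CPM per kb in all lines, and Smoc1 spans from 4.69 in FAK-WT to 0.0566 in FAK-kd cells.

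Calls required both an adjusted p of at most 0.05 (edgeR, Benjamini-Hochberg over all genes) and a size of 1 or more on the log2 scale, which together are the threshold below. In FAK-kd over FAK-/- cells 1 of the 8 genes, Smoc1, was past it, against 2.01% of all 19044 genes, of which 0.914% were higher and 1.09% lower. None of the 8 was past it upward by edgeR or DESeq2, and 2 were higher at an unadjusted edgeR p under 0.05. By the adjusted p alone, 5 of 8 passed (Smoc1, Smoc2 and Thsd4 lower, Thbs1 and Thbs2 higher), against 7.84% of all genes. The libraries did not overlap in 6 of 7 genes that filterByExpr keeps, against 35.3% of all genes it keeps. The median log2 fold change of the 8 genes was -0.26, and that of all genes 0. In FAK-WT over FAK-/- cells 2 genes, Smoc1 and Thsd4, were past the threshold upward and 1, Smoc2, downward, beside 2.32% and 3.06% of all genes (5.38% in all). In FAK-WT over FAK-kd cells Smoc1 and Thsd4 were higher and Smoc2 and Thbs1 lower, beside 2.37% and 2.89% of all genes (5.26% in all). The libraries did not overlap in 5 of the 7 kept genes in each of these comparisons, beside 42.5% and 47.7% of all genes kept. The choice of the genes used these FAK-WT comparisons, and nothing is read from their counts.

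**Figure D4:**
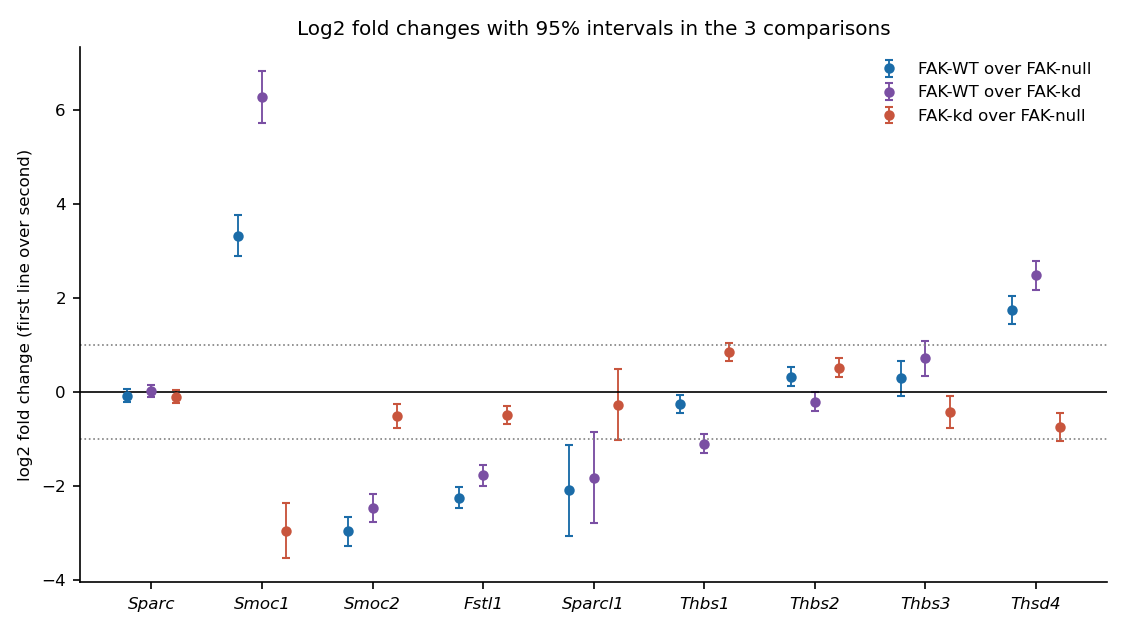
The plot gives the log2 fold change, first line over second, of each gene in the 3 comparisons with 95% intervals from edgeR, and dotted lines at -1 and 1. FAK-kd over FAK-/- lies at -2.94 for Smoc1 and within 1 of 0 for the others, while Sparc lies near 0 in all 3.

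Among 9925 other genes with a mean of at least 100 counts, the genes whose log2 CPM over the 9 libraries were most like those of Smoc2 were Fstl1 (Pearson r = 0.998), Mgp (0.997) and Angptl2 (0.996). The most like Smoc1 were Ogdhl (0.998) and Rhox5 (0.991), and ENSMUSG00000097306, which has the same counts as Rhox5. The most like Thsd4 were Dpp7 (0.995), D17Wsu92e (0.988) and Gm9864 (0.988). These are descriptions over libraries in 3 lines that share their depth and line. Such a correlation does not show the size of a change. D17Wsu92e had means of 213, 182.8 and 170.4 CPM in FAK-WT, FAK-/- and FAK-kd cells, and Dpp7 had 18.77, 12.4 and 10.02. Gm9864 had 57.88, 24.81 and 17.25 CPM, against 29.31, 8.137 and 4.887 for Thsd4. Angptl2 had 283.5, 438.6 and 402.3 CPM, against 28.01, 207.3 and 146.7 for Smoc2. Without FAK-WT replicate 1, Ogdhl, Fstl1, Mgp, Angptl2 and Dpp7 stayed among the closest 3, and Rhox5, D17Wsu92e and Gm9864 moved to ranks 6, 8 and 10.

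Other genes with thrombospondin repeats, of which 50 of 57 listed had a row, gave calls in both directions. In FAK-WT over FAK-/- cells 2 were higher and 8 lower, 10 of 50 against 5.38% of all genes, with a median log2 fold change of -0.04. Of the 8 lower, Ism1, Ism2, Rspo2, Ccn2 and Adamts10, named after their values were seen, had means of at most 0.184 CPM in FAK-WT cells. The calls of Ism2 and Rspo2 were not kept in DESeq2 or without FAK-WT replicate 2 or 3. Unc5c, 1 of the 2 higher and also named so, had 4, 1 and 2 counts in FAK-/- libraries. In FAK-WT over FAK-kd cells 2 were higher and 5 lower (14.0% against 5.26%). Of these calls, those of Ism2, Unc5c and Ccn2 were lost in DESeq2 (adjusted p = 0.249, 0.215 and 0.0993). Those of Ism2 and Unc5c were also lost without FAK-WT replicate 2 or 3, among other alternatives. In FAK-kd over FAK-/- cells 1 was higher and 2 lower (3 of 50 against 2.01%). That total was 1 without FAK-kd replicate 2 or 3 and 5 without FAK-/- replicate 3. Adamts9, a protease of proteoglycans, was highest in FAK-WT cells, as Thsd4 was, at 16.7 CPM in FAK-WT against 6.69 in FAK-/- (log2 1.36, SE 0.16, edgeR adjusted p = 1.74e-05) and 6.66 in FAK-kd cells (log2 1.37, SE 0.16, edgeR adjusted p = 1.60e-05). Unlike Thsd4, it hardly differed between FAK-kd and FAK-/- cells (log2 -0.01). Adamts7, a protease that degrades the related protein COMP, was instead highest in FAK-/- cells, at 71.6 CPM against 27.5 in FAK-WT (log2 -1.46, SE 0.11, edgeR adjusted p = 1.63e-07) and 32.9 in FAK-kd cells (log2 -1.12, SE 0.10, edgeR adjusted p = 3.42e-06). Its FAK-kd and FAK-/- libraries do not overlap, with 32.05 to 34.37 and 65.61 to 81.09 CPM. Ccn3, a matricellular protein of the CCN family, and Unc5b, a netrin receptor, fell in FAK-WT against FAK-/- cells, from 57.4 to 25.7 and from 330 to 150 CPM (log2 -1.23 and -1.13, edgeR adjusted p = 6.65e-07 and 1.27e-07). Spon2, a secreted spondin, was highest in FAK-kd cells, at 6.32 CPM against 2.52 in FAK-/- (log2 1.32, SE 0.33, edgeR adjusted p = 0.0231) and 1.57 and 2.08 in FAK-WT replicates 2 and 3, with 0 counts in the shallow replicate 1 (FAK-WT over FAK-kd, log2 -1.85, SE 0.38, edgeR adjusted p = 0.00258). The call of Spon2 against FAK-/- was lost without FAK-kd replicate 2, FAK-kd replicate 3 or FAK-/- replicate 2 (log2 1.20, 1.12 and 1.20, edgeR adjusted p = 0.107, 0.17 and 0.0625). The third gene of that comparison, Adamts10, named after its values were seen, is scarce, at 1.12 CPM in FAK-kd and 2.40 in FAK-/- cells (log2 -1.09, edgeR adjusted p = 0.0169). Its call was lost in DESeq2 (log2 -1.11, adjusted p = 0.0795) and without FAK-kd replicate 2 or 3 (edgeR adjusted p = 0.072 and 0.0762).

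Among 16 other matricellular genes, those past the threshold lay on both sides. In FAK-WT over FAK-/- 3 were higher and 2 lower (31.2% of the list against 5.38% of all genes), in FAK-WT over FAK-kd 1 was higher and 2 lower (18.8% against 5.26%), and in FAK-kd over FAK-/- 1 was higher (6.25% against 2.01%), or 2 without FAK-/- replicate 1 or FAK-WT replicate 1. The first of these totals was 3 without FAK-WT replicate 2, and the list medians were 0, -0.36 and 0.19 on the log2 scale. Tgfbi, which encodes a secreted adhesion protein induced by TGF-beta, had means of 65.7 CPM (FAK-WT), 374 CPM (FAK-/-) and 364 CPM (FAK-kd cells). Its log2 fold change was -2.52 over FAK-/- (SE 0.07, edgeR adjusted p = 2.41e-12) and -2.48 over FAK-kd cells (SE 0.07, edgeR adjusted p = 2.93e-12), and in FAK-kd over FAK-/- it was -0.04 (95% interval -0.165 to 0.09). Efemp1, a fibulin, separated FAK-/- cells from the others, with means of 282 CPM (FAK-WT), 90.9 CPM (FAK-/-) and 261 CPM (FAK-kd cells). It rose in FAK-kd over FAK-/- cells by 1.52 on the log2 scale (SE 0.11, edgeR adjusted p = 3.27e-07) and in FAK-WT over FAK-/- cells by 1.63 (SE 0.11, edgeR adjusted p = 5.27e-08). The others past the threshold, named after their values were seen, were the tenascins Tnc (higher in FAK-WT than in either line, the call against FAK-/- lost without FAK-WT replicate 2, log2 1.10, edgeR adjusted p = 0.0883) and Tnr (higher than in FAK-/-, a call lost in 9 of the alternatives, DESeq2 among them) and the fibulin Fbln2, which had at most 3 counts in every FAK-WT library.

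Of 28 measured receptors, ligands and matrix partners of these proteins, 3 were past the threshold downward in FAK-WT over FAK-/- cells (10.7%, against 3.06% of all genes downward), 3 in FAK-WT over FAK-kd cells (10.7% against 2.89%), and none was higher by edgeR. In FAK-kd over FAK-/- cells 2 were higher and 1 lower (10.7% against 2.01% of all genes in either direction). At an unadjusted edgeR p under 0.05, 7 were higher in FAK-WT over FAK-/- and 3 in FAK-WT over FAK-kd cells. In these FAK-WT comparisons DESeq2 called 0 and 1 higher. The list medians were 0.01 and -0.32, and 0.03 in FAK-kd over FAK-/- cells, on the log2 scale. Itgb3, the integrin subunit that pairs with the alpha v chain as a receptor for thrombospondin 1, had 0, 18 and 12 counts in FAK-WT libraries, 347, 309 and 327 in FAK-/-, and 547, 600 and 710 in FAK-kd. Its log2 fold change in FAK-WT was -4.73 over FAK-/- (SE 0.21, edgeR adjusted p = 7.16e-10) and -5.48 over FAK-kd cells (SE 0.21, edgeR adjusted p = 1.14e-10), and FAK-kd over FAK-/- gave 0.74 (SE 0.13, edgeR adjusted p = 0.00153). Stab1, a scavenger receptor of SPARC, and Fbn2, a fibrillin, were the others, both named after their values were seen. Stab1 had 20 and 21 counts (0.532 and 0.606 CPM) in FAK-WT replicates 2 and 3 and 0 in the shallow replicate 1, with means of 2.04 CPM in FAK-/- and 4.18 in FAK-kd cells. Fbn2 had 1, 2 and 1 counts in FAK-WT, 151, 131 and 208 in FAK-/-, and 32, 18 and 44 in FAK-kd libraries. In FAK-kd over FAK-/- cells Stab1 (log2 1.04, edgeR adjusted p = 0.0102) and Col1a2, a collagen I chain (log2 1.29, SE 0.25, edgeR adjusted p = 0.00469), were higher and Fbn2 lower (log2 -2.55, SE 0.35, edgeR adjusted p = 0.000283). The call of Fbn2 was lost in DESeq2 (log2 -2.56, adjusted p = 0.112), and that of Stab1 without FAK-kd replicate 3 or FAK-/- replicate 1 (log2 0.93 and 0.95, edgeR adjusted p = 0.0868 and 0.0384). Col1a2 had 185, 239 and 192 counts in FAK-kd and 56, 55 and 114 in FAK-/- libraries.

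**Figure D5:**
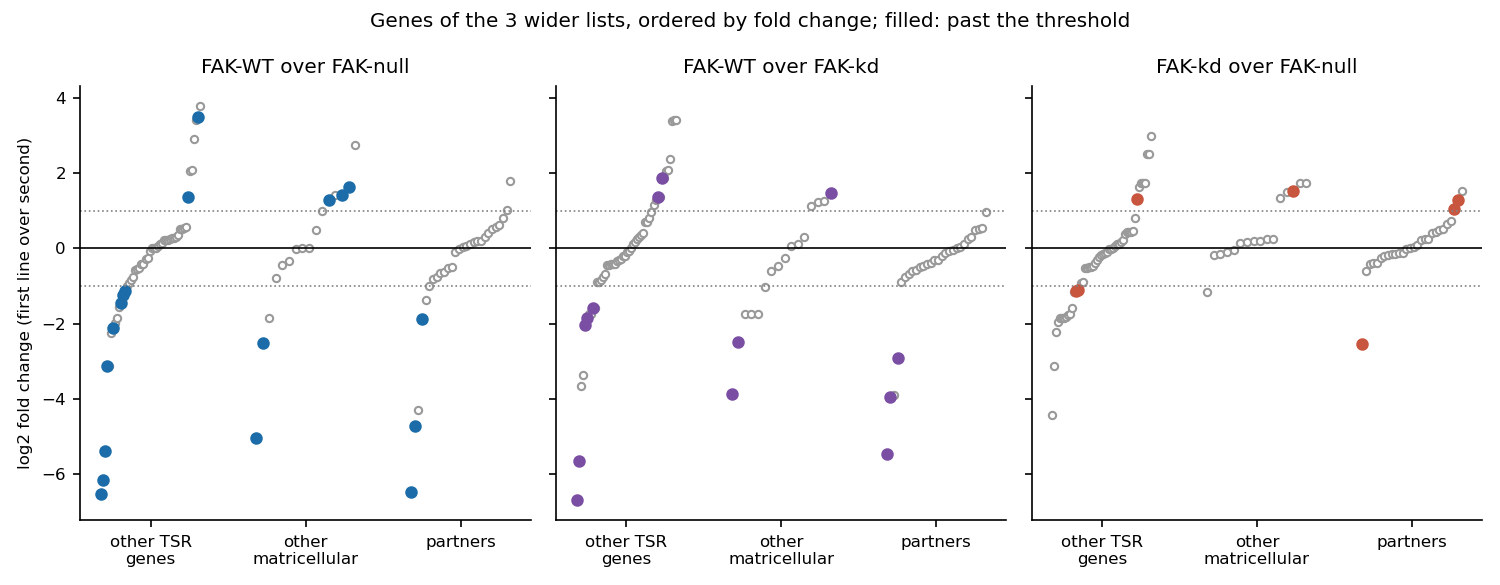
Each panel plots the log2 fold change of every measured gene of the lists of other thrombospondin-repeat (TSR) genes, other matricellular genes and partners in 1 comparison, ordered by value within a list, with filled points for genes past the threshold and dotted lines at -1 and 1. In FAK-WT over FAK-/- cells 8 of 10 filled thrombospondin-repeat genes lie below 0, and Efemp1 and Tgfbi lie on opposite sides of 0.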

How the data were processed

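RNA was sequenced from 9 libraries, 3 for each of the 3 SCC lines, with paired-end reads and a TruSeq v2 preparation. The authors pseudoaligned reads with kallisto (0.43.1 in the submitters' notes, which name GRCm38 and mm10) and collapsed transcripts to genes by tximport. What they deposited are the estimated counts (expected counts) as whole numbers, not scaled to library size, with no gene at zero in all libraries. The transcriptome release was not given in the sources used here.

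The 9 genes and all gene lists were chosen with earlier results of these data known. Counts were fitted with edgeR 4.0.16 in R 4.3.3 (TMM, glmQLFit and glmQLFTest) over all 19044 genes and 9 libraries with the cell line as the factor, and adjusted by Benjamini-Hochberg. No filter was applied, and totals lay between 779755 and 37264636 counts. Standard errors were derived from the F statistic. Shares were compared with exact permutation tests (scipy 1.17.1). Symbols were found for 18856 genes, and transcripts were taken from GENCODE M21 on GRCm38. The steps were tested on simulated data.

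Named are the 9 genes, 5 relatives (Thbs4 had no row, and Comp had at most 2 counts in any library), up to 4 genes per list, comparison and direction with the largest fold change past the threshold at a mean of at least 100 counts, and the 3 genes most like Smoc1, Smoc2 and Thsd4 by log2 CPM (prior count 2). Alternatives were DESeq2 1.42.0, its size factors, library size alone, filterByExpr, only the groups compared, a replicate block, glmTreat, no fold-change minimum, and each library left out. Replicate numbers were not taken to pair libraries.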

Additional observations from a re-analysis of the deposited data

How the results depend on the processing

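Of the counts of genes past the threshold, 100 stayed within 1.5 times the reported count and 20 did not under alternatives that kept all libraries. With no fold-change minimum, FAK-kd over FAK-/- gave 5 of the 9 genes, 7 other thrombospondin-repeat genes, 2 other matricellular genes, 9 partners and 1 relative (Fstl1); FAK-WT over FAK-/- gave 8 matricellular genes and 12 partners, and FAK-WT over FAK-kd gave 14 thrombospondin-repeat genes, 7 matricellular genes and 13 partners. With glmTreat, FAK-WT over FAK-/- gave 5 thrombospondin-repeat genes, 3 matricellular genes and 1 relative, FAK-WT over FAK-kd gave 3 thrombospondin-repeat genes and 1 relative, and FAK-kd over FAK-/- gave 1 partner and 0 thrombospondin-repeat genes, where edgeR's unadjusted p was under 0.05 for 6 higher and 8 lower. DESeq2 gave 4 thrombospondin-repeat genes and 1 relative in FAK-WT over FAK-kd, and filterByExpr 2 matricellular genes in FAK-kd over FAK-/-.

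With each library left out in turn, the counts for the 9 genes were 1, 3 and 4 each time, as reported. The counts ranged from 1 to 5 for thrombospondin-repeat genes in FAK-kd over FAK-/-, from 3 to 5 and from 1 to 2 for matricellular genes in FAK-WT over FAK-/- and FAK-kd over FAK-/-, and from 1 to 2 for relatives in both FAK-WT comparisons. The signs of the 7 genes other than Spock2 held in 15 of 15 alternatives. Same-numbered libraries of different lines did not deviate together (mean r = -0.00771 over 9 pairs, 0.00354 over 18 pairs with different numbers). A replicate block gave 1, 3 and 4 of the 9 genes past the threshold in FAK-kd over FAK-/-, FAK-WT over FAK-/- and FAK-WT over FAK-kd, as reported, and a log2 fold change of -2.93 for Smoc1 in the first. FAK-WT replicate 1 limits what can be read of genes under 3.78 CPM in FAK-WT cells to the other 2 libraries.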
